A study of Mus musculus with 20 samples.

Results

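The genes described here are 38 markers of Kupffer cells and other macrophages, read in whole liver from 4 inbred mouse strains. The list was drawn up with earlier results of these data known. Its probe sets were then taken by name: each one whose annotated gene symbol was exactly a listed marker. Every measured marker had 1 such probe set. This gave 37 measured markers among 19938 genes with 1 annotated symbol. The list has 15 markers of resident Kupffer cells (14 measured), 9 of recruited myeloid cells and 14 shared by macrophages and other leukocytes, and the lists are described apart. Slc11a1 was not analysed here. Levels above the 40th percentile of the array on at least 5 of 20 arrays were required for testing, which 33 of the 37 measured markers and 14190 genes in all met.

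The study hybridised liver RNA of single male mice, 1 array each. NZO is the New Zealand obese strain (NZO/Hl), C3H came from the Jackson Laboratory, 129P2 is 129P2/OlaHsd, and B6 is the C57/Bl6 strain. The C3H label gives a stock number and no substrain name. Each strain had 5 animals, all 6 weeks old. All 4 groups had eaten a diet with 45 kcal% fat since weaning at 21 days, and no group on another diet was among the samples, so each difference is between strains on that diet. The strains differ throughout the genome, and no single allele is set apart by the design.

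Kupffer cells are the resident macrophages of the liver. They sit inside the sinusoids, hold to the endothelium, and clear bacteria, immune complexes, old red cells and lipoproteins from portal blood through scavenger, complement and Fc receptors. They are seeded before birth and renew themselves, while monocytes recruited from blood enter the liver during injury or overnutrition and can take on the resident program. Csf1 receptor signalling keeps both alive, and PU.1, encoded by Spi1, is the transcription factor on which the macrophage program rests.

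The tissue label held: the 9 tested hepatocyte genes averaged between 13.25 and 13.56 on the log2 scale in every animal. Array spread, the interquartile range of all values on an array, averaged 2.33 ± 0.11 in NZO, 2.31 ± 0.09 in C3H, 2.32 ± 0.07 in 129P2 and 2.43 ± 0.06 in B6 (SD, n = 5 each). Over all tested genes 49% followed this spread in a fit with strain, against 10 of the 33 tested markers (30.3%), and where a call named below ended when the spread entered the fit, that value is given beside it. In bulk tissue fewer cells of a type and less RNA per cell cannot be told apart, and sequence differences between strains under the probes were not tested.

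Promoters were searched for letters that PU.1 is known to bind, as Spi1, which encodes PU.1, was among the markers lower in C3H livers. Of the markers with a match, those shown (Folr2, Ctss, C1qc and Timd4) were also lower there in at least 1 comparison. For C1qc this was C3H minus B6 only, and the call ended once spread entered the fit (-0.45, limma adjusted p = 0.0921). For Timd4 it was C3H minus 129P2 only, a call lost without any 1 of 11 of the 20 animals. Cd68 and Cybb, which also have a match, were called in no comparison without a covariate. Whether PU.1 has a part in any strain difference was not tested. The RefSeq windows (GRCm38.p6, a B6 genome, 250 bases before to 50 after each gene's start) held 30 windows for 27 measured markers. The PU.1 letters GAGGAAGT, searched on both strands, were in 2 of the 30 windows, those of Ctss and C1qc, and in 3.2% of all 32851 windows. The composite PU.1 and IRF letters, GGAA, NN and GAAA in a row, were in 4, those of Folr2, Timd4, Cd68 and Cybb, and in 2.72% of all windows. The C/EBP letters TTGCGNAA were in none of the markers' windows and in 0.798% of all. Of the 6 windows with a match, 4 are shown as 100 bases along the gene's strand, with the match in capitals. Both PU.1 matches lie on the opposite strand and so read ACTTCCTC.

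Folr2, chr7:101857271-101857370, minus strand, match at position -136 from the start: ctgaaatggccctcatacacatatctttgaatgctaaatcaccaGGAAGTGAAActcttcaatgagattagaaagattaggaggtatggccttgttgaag
Ctss, chr3:95526692-95526791, plus strand, match at position -2 from the start: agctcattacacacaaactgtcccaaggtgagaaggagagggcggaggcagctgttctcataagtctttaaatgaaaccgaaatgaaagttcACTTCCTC
C1qc, chr4:136893056-136893155, minus strand, match at position -195 from the start: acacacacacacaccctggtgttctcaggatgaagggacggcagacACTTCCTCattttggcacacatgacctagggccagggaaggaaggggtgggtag
Timd4, chr11:46810683-46810782, plus strand, match at position -72 from the start: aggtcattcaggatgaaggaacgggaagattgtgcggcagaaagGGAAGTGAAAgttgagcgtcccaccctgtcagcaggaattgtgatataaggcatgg

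A match is a run of letters, not a measured binding site. Spi1 itself had no window in the table.

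Over the 4 strains, limma's F-test called 15 of the 33 tested markers at an adjusted p under 0.05 (45.5%), against 17% of all tested genes. The called markers were 6 of 14 resident Kupffer genes, 3 of 6 recruited myeloid genes and 6 of 13 shared genes. C3H had the lowest strain mean for 25 of the 33 tested markers (75.8%), against 22.2% of all tested genes. By list these were 9 of 14 resident, 4 of 6 recruited and 12 of 13 shared genes. As the markers were chosen with earlier results of these data known, neither share is an independent test.

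**Figure D1:**
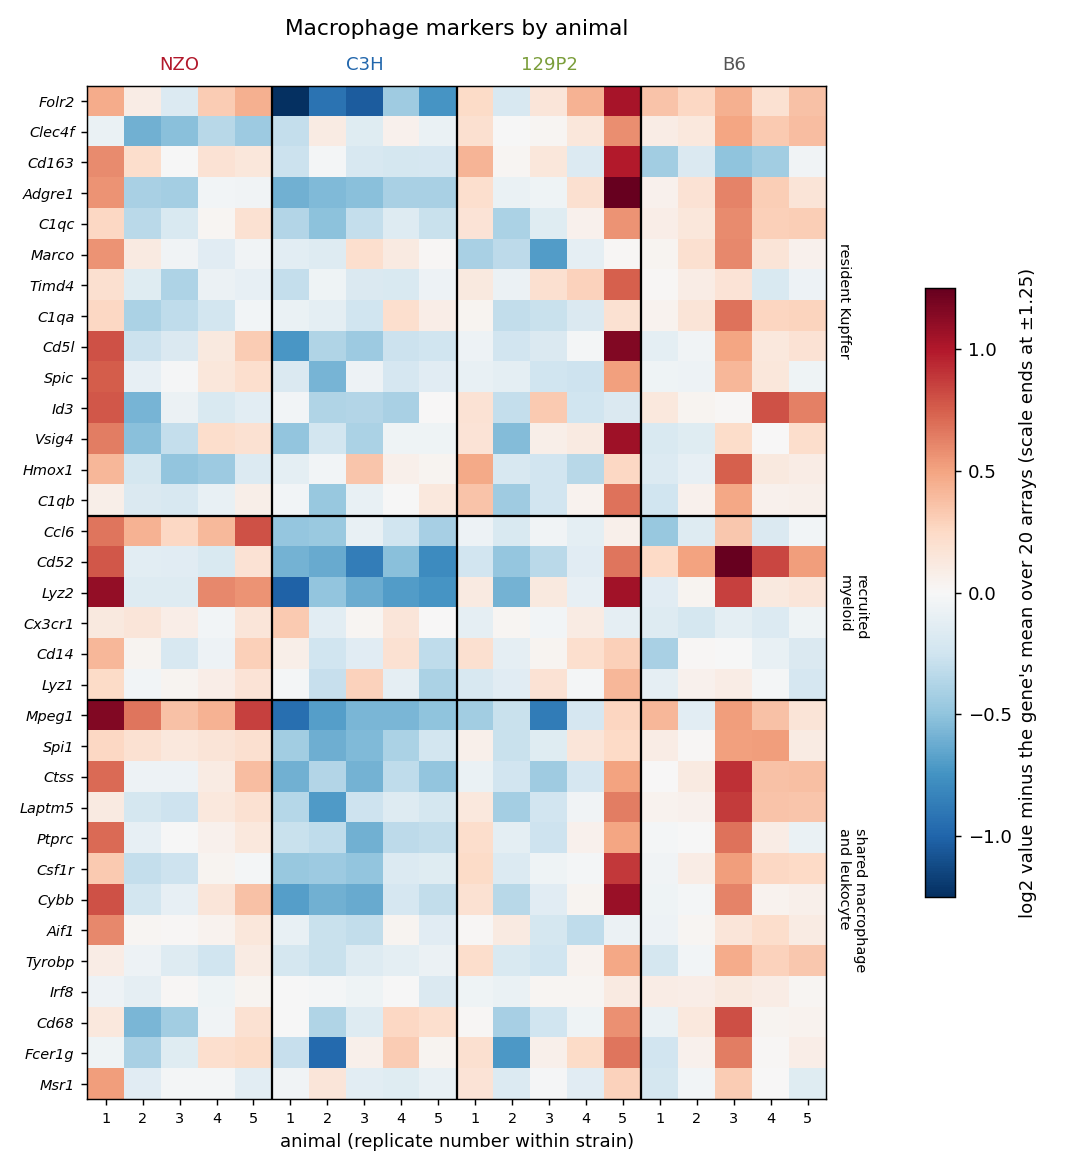
Heat map of the 33 tested markers (rows, grouped as resident Kupffer, recruited myeloid and shared) in 20 animals (columns, in the order NZO, C3H, 129P2 and B6). Colour gives the log2 level minus that marker's mean over the 20 arrays, cut off at the ends of the colour bar. Blue cells fill most of the C3H columns, where 24 to 29 of the 33 markers of an animal lay below their own 20-array median.

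C3H livers compared with B6 livers were lower for 11 of the 33 tested markers and higher for 0, where 5.34% of all tested genes were called lower and 2.71% higher (limma, Benjamini-Hochberg). The 11 were Folr2, Adgre1 and C1qc among resident Kupffer genes, Cd52 and Lyz2 among recruited myeloid genes, and Spi1, Mpeg1, Ctss, Laptm5, Csf1r and Ptprc among shared genes. The C3H and B6 values did not overlap for any of the 11, which are 33.3% of the 33 tested markers. Of all 14190 tested genes, 813 (5.73%) were called without overlap. As 758 of these genes were called lower and 384 higher, most called genes were without overlap too. At an unadjusted p under 0.05 the count in either direction was 20, against 3522 of the 14190 tested genes. The median difference over the tested markers was -0.32 on the log2 scale (-0.20 with array spread as a covariate), against a median near 0.00 over all tested genes.

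NZO livers compared with C3H livers had 8 markers higher and 0 lower, against 3.51% and 3.09% of all tested genes. They were Folr2 (resident), Lyz2, Ccl6 and Cd52 (recruited), and Mpeg1, Ctss, Spi1 and Ptprc (shared). C3H compared with 129P2 had 4 markers lower and 0 higher, against 2.78% and 2.25% of all tested genes: Folr2, Timd4 and Adgre1 (resident) and Spi1 (shared). At an unadjusted p under 0.05 the counts in either direction were 16 in NZO minus C3H and 16 in C3H minus 129P2, against 2288 and 2289 of all tested genes. These 3 comparisons share the C3H animals and are not independent. In all, 13 tested markers were lower in C3H in at least 1 of them, against 8.63% of all tested genes, and 8 in at least 2, against 2.37%. The 13 genes lie on 10 chromosomes.

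**Figure D2:**
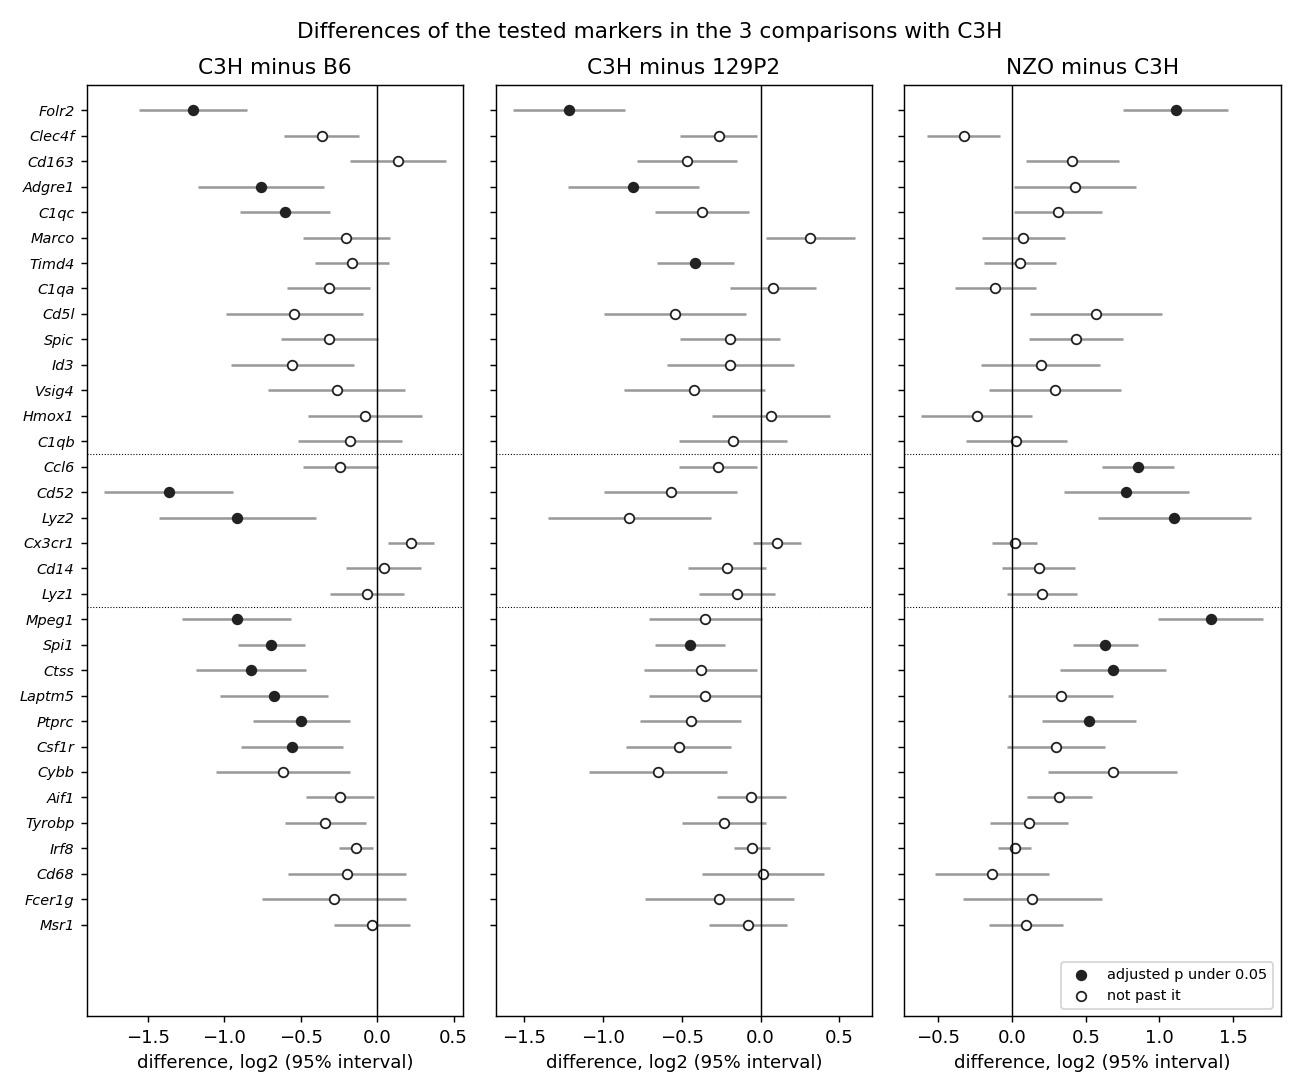
Log2 differences of each tested marker in the 3 comparisons that hold C3H, with 95% intervals from limma; filled points passed the adjusted threshold and open points did not. Called points lie below 0 in the panels with C3H first, and above 0 in the panel of NZO minus C3H.

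Folr2 and Spi1 were lower in C3H than in each of the other 3 strains, a pattern called for 0.641% of all tested genes. Folr2, folate receptor beta, is a folate-binding surface protein of tissue-resident macrophages (probe set 10566026, chromosome 7). Its log2 levels were 8.50, 8.12, 7.86, 8.35 and 8.48 in NZO livers, 6.77, 7.11, 6.99, 7.58 and 7.29 in C3H livers, 8.27, 7.83, 8.19, 8.47 and 9.06 in 129P2 livers, and 8.39, 8.29, 8.48, 8.22 and 8.39 in B6 livers. The C3H values lay below all 15 others. Folr2 averaged 8.26 ± 0.27 in NZO, 7.15 ± 0.31 in C3H, 8.36 ± 0.45 in 129P2 and 8.35 ± 0.10 in B6 (SD, n = 5 each; limma F-test adjusted p = 1.81e-05). C3H held 43.4% of the B6 level (difference -1.20 ± 0.17 log2, SE; limma adjusted p = 5.07e-05) and 43.1% of the 129P2 level (-1.21 ± 0.17; limma adjusted p = 4.91e-05). NZO was 2.16-fold higher than C3H (1.11 ± 0.17; limma adjusted p = 0.00012). NZO minus B6 was -0.09, NZO minus 129P2 was -0.10 and 129P2 minus B6 was 0.01, none of them called. The 3 calls remained under every alternative that kept the threshold.

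Spi1 encodes PU.1, the factor that commits progenitors to the myeloid lineage (probe set 10473809, chromosome 2). Its log2 levels were 7.85, 7.79, 7.73, 7.76 and 7.79 in NZO livers, 7.16, 6.98, 7.05, 7.20 and 7.37 in C3H livers, 7.66, 7.31, 7.44, 7.74 and 7.84 in 129P2 livers, and 7.69, 7.61, 8.11, 8.12 and 7.70 in B6 livers. C3H again lay below the NZO and B6 animals without overlap, while the highest C3H value, 7.37, exceeded the lowest 129P2 value, 7.31. Means were 7.78 ± 0.05 in NZO, 7.15 ± 0.15 in C3H, 7.60 ± 0.22 in 129P2 and 7.84 ± 0.25 in B6 (SD, n = 5 each; limma F-test adjusted p = 0.000142). The differences were -0.69 ± 0.11 in C3H minus B6 (limma adjusted p = 0.000128), -0.45 ± 0.11 in C3H minus 129P2 (0.0122) and 0.63 ± 0.11 in NZO minus C3H (0.000329). The 3 calls remained under every alternative that kept the threshold. Irf8, another myeloid transcription factor and a partner of PU.1, averaged 7.42 in NZO, 7.40 in C3H, 7.46 in 129P2 and 7.54 in B6 and was not called in any comparison. Its within-strain SD of 0.06 was the smallest among the tested markers.

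**Figure D3:**
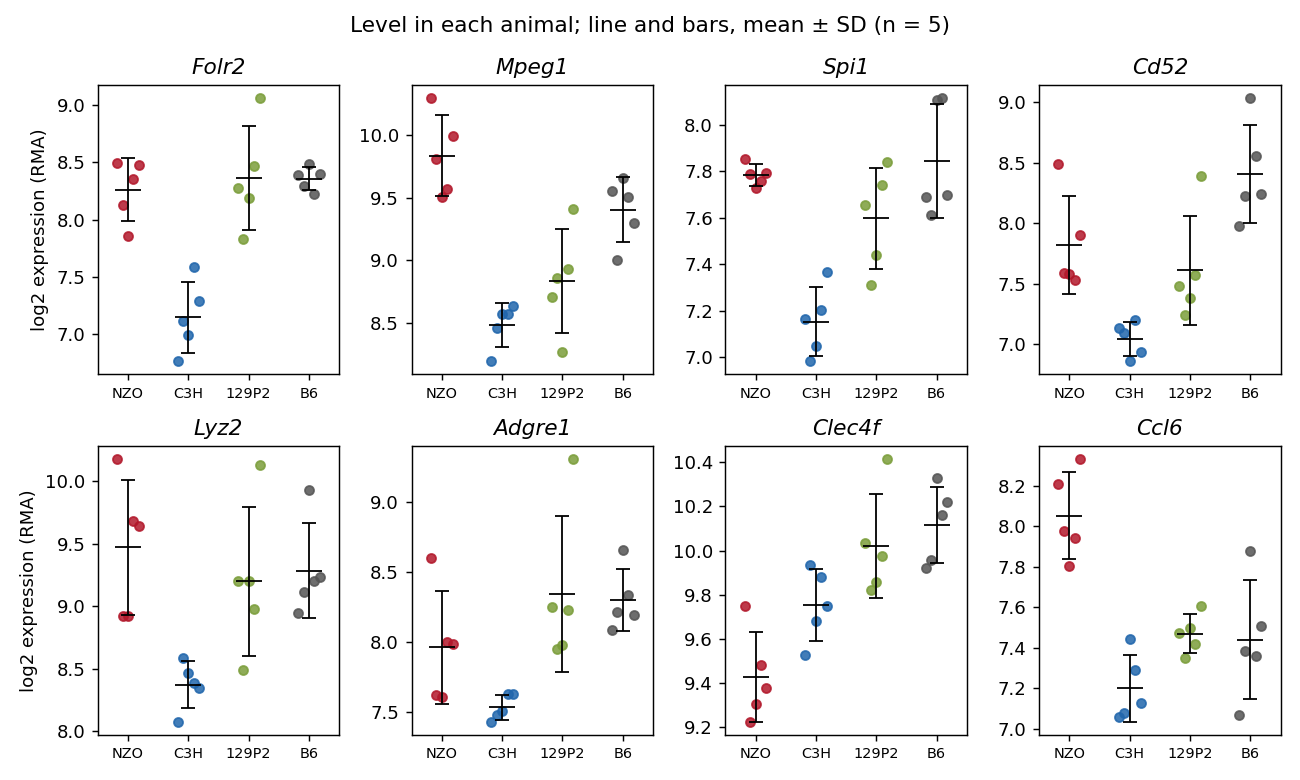
Log2 level of 8 markers in every animal, by strain, with a short line at the strain mean and error bars of the SD (n = 5 each). Folr2 and Spi1 are lowest in C3H, Ccl6 is highest in NZO, and Clec4f is lowest in NZO; vertical axes differ between panels and do not start at 0.

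Adgre1 and C1qc were the other resident Kupffer markers called lower in C3H than in B6. The other 11 of the 14 tested were not called there, among them Clec4f, Cd5l, Vsig4, Timd4 and Marco. Whether C3H livers held fewer resident cells was not tested. Adgre1, the F4/80 antigen used to define mouse macrophages (probe set 10446282, chromosome 17), had log2 levels of 8.60, 7.63, 7.61, 8.00 and 7.99 in NZO livers, 7.43, 7.48, 7.51, 7.63 and 7.63 in C3H livers, 8.25, 7.95, 7.98, 8.23 and 9.30 in 129P2 livers, and 8.09, 8.22, 8.66, 8.34 and 8.19 in B6 livers. The C3H animals spanned 7.43 to 7.63 and lay below all 129P2 and B6 animals, while NZO animals overlapped with C3H. Adgre1 averaged 7.96 ± 0.40 in NZO, 7.54 ± 0.09 in C3H, 8.34 ± 0.56 in 129P2 and 8.30 ± 0.22 in B6 (SD, n = 5 each; limma F-test adjusted p = 0.0151). The difference was -0.81 ± 0.20 in C3H minus 129P2 (limma adjusted p = 0.0164, 57.2% of the 129P2 level) and -0.76 ± 0.20 in C3H minus B6 (0.0186). The B6 call did not pass in the fit with the spread covariate (-0.53, adjusted p = 0.175) or without B6 replicate 3 (-0.67, adjusted p = 0.0590).

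C1qc, a chain of the complement recognition molecule C1q (probe set 10517513, chromosome 4), had log2 levels of 9.15, 8.56, 8.71, 8.92 and 9.09 in NZO livers, 8.52, 8.38, 8.60, 8.74 and 8.62 in C3H livers, 9.07, 8.50, 8.74, 8.95 and 9.45 in 129P2 livers, and 8.98, 9.03, 9.48, 9.19 and 9.20 in B6 livers. All C3H animals lay below all B6 animals but overlapped with NZO and 129P2 animals. C1qc averaged 8.88 ± 0.25 in NZO, 8.57 ± 0.13 in C3H, 8.94 ± 0.36 in 129P2 and 9.18 ± 0.20 in B6 (SD, n = 5 each; limma F-test adjusted p = 0.0256). The difference in C3H minus B6 was -0.61 ± 0.14 (limma adjusted p = 0.00931), and with array spread as a covariate -0.45 (adjusted p = 0.0921). Its neighbours on chromosome 4 encode the other chains of C1q. C1qa averaged 9.05 in NZO, 9.16 in C3H, 9.08 in 129P2 and 9.48 in B6 and was lower in NZO than in B6 only (-0.43 ± 0.13; limma adjusted p = 0.0401), a call lost without any 1 of 7 of the 20 animals (adjusted p up to 0.128) and with the spread covariate (-0.28, adjusted p = 0.176). C1qb averaged 9.70 in NZO, 9.67 in C3H, 9.84 in 129P2 and 9.85 in B6 and was not called (limma F-test adjusted p = 0.715). The F-test did not call C1qa (adjusted p = 0.071).

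Timd4, a phosphatidylserine receptor of long-lived resident macrophages, averaged 7.72 ± 0.21 in NZO, 7.67 ± 0.10 in C3H, 8.08 ± 0.30 in 129P2 and 7.83 ± 0.14 in B6 (SD, n = 5 each). It was lower in C3H than in 129P2 (-0.41 ± 0.12; limma adjusted p = 0.0418), while the F-test over the 4 strains gave an adjusted p of 0.0539. The call was lost without any 1 of 11 of the 20 animals, with an adjusted p of 0.131 without 129P2 replicate 5.

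Among the markers listed as recruited myeloid, Cd52 and Lyz2 were lower in C3H than in NZO and B6. Cd52 is a gene of leukocytes at large and Lyz2 also of macrophages, so neither tells recruited cells from resident ones. Cd52, a small glycosylated surface antigen of leukocytes (probe set 10517165, chromosome 4), had log2 levels of 8.49, 7.59, 7.58, 7.53 and 7.90 in NZO livers, 7.13, 7.09, 6.86, 7.20 and 6.94 in C3H livers, 7.48, 7.24, 7.38, 7.57 and 8.39 in 129P2 livers, and 7.97, 8.22, 9.04, 8.56 and 8.24 in B6 livers. The C3H animals lay below every animal of the other strains, and the B6 animals were mostly the highest. Cd52 averaged 7.82 ± 0.41 in NZO, 7.04 ± 0.14 in C3H, 7.61 ± 0.45 in 129P2 and 8.41 ± 0.41 in B6 (SD, n = 5 each; limma F-test adjusted p = 0.000313). C3H held 38.8% of the B6 level (-1.36 ± 0.20; limma adjusted p = 9.34e-05). NZO exceeded C3H by 0.78 ± 0.20 (limma adjusted p = 0.0195), which did not pass once NZO replicate 1 was left out (0.61, adjusted p = 0.0671).

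Lyz2, lysozyme M of monocytes, macrophages and neutrophils (probe set 10372648, chromosome 10), had log2 levels of 10.18, 8.92, 8.92, 9.68 and 9.64 in NZO livers, 8.07, 8.58, 8.46, 8.38 and 8.35 in C3H livers, 9.20, 8.49, 9.20, 8.98 and 10.13 in 129P2 livers, and 8.94, 9.12, 9.93, 9.20 and 9.23 in B6 livers. The C3H animals reached 8.58 at most, and their values did not overlap with those of NZO or B6, while the lowest 129P2 animal stood at 8.49. Lyz2 averaged 9.47 ± 0.54 in NZO, 8.37 ± 0.19 in C3H, 9.20 ± 0.60 in 129P2 and 9.28 ± 0.38 in B6 (SD, n = 5 each; limma F-test adjusted p = 0.0104). NZO was 2.15-fold higher than C3H (1.10 ± 0.25; limma adjusted p = 0.00611). C3H minus B6 was -0.91 ± 0.25 (limma adjusted p = 0.0243), and -0.83 against 129P2 was not called (adjusted p = 0.0555). The B6 call was lost without B6 replicate 3 (-0.75, adjusted p = 0.0790), without C3H replicate 1 (-0.84, 0.0631), with robust moderation (0.0526) and with the spread covariate (-0.55, 0.234). Lyz1, its near-identical neighbour on chromosome 10, averaged 7.87 in NZO, 7.67 in C3H, 7.82 in 129P2 and 7.74 in B6 and was not called (limma F-test adjusted p = 0.502). The probe sets of this pair may each bind RNA of both genes.

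Of the other recruited myeloid markers, Ccr2, the chemokine receptor through which monocytes leave the bone marrow, was below the 40th percentile on all 20 arrays. Itgam and Itgax, the integrin chains CD11b and CD11c, exceeded it on 1 array each, and so did Tlr4, the lipopolysaccharide receptor of the shared list. These 4 markers were not tested, and their strain means lay between 5.26 and 6.49 log2. Cd14, the lipopolysaccharide co-receptor, averaged 6.91 in NZO, 6.72 in C3H, 6.94 in 129P2 and 6.68 in B6, and was not called in any comparison.

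Shared macrophage and leukocyte genes gave 6 of the 11 markers lower in C3H than in B6. Mpeg1, perforin-2, a pore-forming protein of phagocytes (probe set 10461721, chromosome 19), had log2 levels of 10.30, 9.81, 9.51, 9.57 and 9.997 in NZO livers, 8.20, 8.46, 8.57, 8.57 and 8.64 in C3H livers, 8.71, 8.86, 8.27, 8.93 and 9.41 in 129P2 livers, and 9.56, 9.01, 9.66, 9.51 and 9.30 in B6 livers. The NZO animals were the highest as a group and the C3H animals lay below all NZO and B6 animals. Mpeg1 averaged 9.84 ± 0.32 in NZO, 8.49 ± 0.17 in C3H, 8.84 ± 0.41 in 129P2 and 9.41 ± 0.26 in B6 (SD, n = 5 each; limma F-test adjusted p = 1.51e-05), and 78.3% of its variance lay between strains, the highest share among the tested markers. NZO was 2.55-fold higher than C3H (1.35 ± 0.17; limma adjusted p = 1.08e-05) and 2.001-fold higher than 129P2 (1.0005 ± 0.17; adjusted p = 0.000379). C3H held 52.9% of the B6 level (-0.92 ± 0.17; limma adjusted p = 0.00121). These 3 calls remained under every alternative that kept the threshold. 129P2 was also lower than B6 (-0.57 ± 0.17; limma adjusted p = 0.0498), but this call was lost without any 1 of 16 of the 20 animals (adjusted p up to 0.147) and with the spread covariate (-0.50, adjusted p = 0.160).

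Ctss, the lysosomal protease cathepsin S that trims invariant chain for antigen presentation (probe set 10494271, chromosome 3), had log2 levels of 9.82, 9.05, 9.05, 9.21 and 9.50 in NZO livers, 8.51, 8.75, 8.52, 8.80 and 8.62 in C3H livers, 9.03, 8.87, 8.67, 8.91 and 9.62 in 129P2 livers, and 9.12, 9.22, 10.03, 9.48 and 9.49 in B6 livers. C3H values reached 8.80 at most and lay below all NZO and B6 values. Ctss averaged 9.33 ± 0.33 in NZO, 8.64 ± 0.13 in C3H, 9.02 ± 0.36 in 129P2 and 9.47 ± 0.35 in B6 (SD, n = 5 each; limma F-test adjusted p = 0.00509). C3H minus B6 was -0.83 ± 0.17 (limma adjusted p = 0.00333) and NZO minus C3H was 0.69 ± 0.17 (0.0145). The NZO call was lost without NZO replicate 1 (0.56, adjusted p = 0.0519), and the B6 call held with the spread covariate (0.0448).

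Laptm5, a lysosomal membrane protein of blood cells (probe set 10508663, chromosome 4), had log2 levels of 8.81, 8.48, 8.45, 8.83 and 8.90 in NZO livers, 8.35, 7.99, 8.44, 8.54 and 8.48 in C3H livers, 8.83, 8.28, 8.46, 8.65 and 9.35 in 129P2 livers, and 8.75, 8.75, 9.58, 9.06 and 9.05 in B6 livers. Csf1r, the receptor for Csf1 and Il34 (probe set 10456071, chromosome 18), had log2 levels of 9.56, 8.93, 8.97, 9.26 and 9.20 in NZO livers, 8.76, 8.78, 8.74, 9.06 and 9.08 in C3H livers, 9.47, 9.06, 9.18, 9.20 and 10.11 in 129P2 livers, and 9.18, 9.32, 9.75, 9.49 and 9.48 in B6 livers. Ptprc, the leukocyte antigen CD45 (probe set 10358224, chromosome 1), had log2 levels of 8.56, 7.75, 7.85, 7.90 and 7.98 in NZO livers, 7.58, 7.54, 7.26, 7.52 and 7.54 in C3H livers, 8.07, 7.73, 7.60, 7.91 and 8.34 in 129P2 livers, and 7.83, 7.84, 8.53, 7.95 and 7.77 in B6 livers. For these 3 genes the C3H animals lay below the B6 animals. For Ptprc they also lay below the NZO and 129P2 animals, while for Laptm5 and Csf1r they overlapped with them.

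The C3H minus B6 difference was -0.68 ± 0.17 for Laptm5 (limma adjusted p = 0.0158), -0.56 ± 0.16 for Csf1r (0.0325) and -0.50 ± 0.15 for Ptprc (0.0477). NZO also exceeded C3H for Ptprc (0.52 ± 0.15; limma adjusted p = 0.041). Without B6 replicate 3 the B6 calls were lost for all 3 genes, with adjusted p of 0.0528 for Laptm5, 0.0949 for Csf1r and 0.146 for Ptprc. The Csf1r call was lost without any 1 of 6 of the 20 animals, and the Ptprc calls without 13 of the 20 against B6 and without 9 against NZO (adjusted p up to 0.132). With array spread as a covariate the B6 differences were -0.54, -0.36 and -0.27, with adjusted p of 0.114, 0.249 and 0.364, in the order Laptm5, Csf1r and Ptprc.

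The other shared genes did not pass in any comparison. Cybb, the gp91 subunit of the phagocyte NADPH oxidase, came nearest, with means of 8.89 ± 0.41 in NZO, 8.20 ± 0.21 in C3H, 8.85 ± 0.55 in 129P2 and 8.82 ± 0.28 in B6 (SD, n = 5 each). Its difference was 0.68 ± 0.21 in NZO minus C3H (limma adjusted p = 0.0557) and -0.62 ± 0.21 in C3H minus B6 (0.0761). Cd68, a lysosomal glycoprotein of macrophages, averaged 8.56 in NZO, 8.69 in C3H, 8.68 in 129P2 and 8.89 in B6 (limma F-test adjusted p = 0.54). Msr1, the scavenger receptor A, averaged 8.20 in NZO, 8.11 in C3H, 8.19 in 129P2 and 8.14 in B6, and 3.8% of its variance lay between strains, the lowest share among the tested markers. The signalling adaptors Fcer1g and Tyrobp and the cytoskeletal protein Aif1 were not called either, and their strain means ranged over 0.28, 0.34 and 0.32 log2.

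With array spread as a covariate, 5 markers were lower in C3H than in B6 (Folr2, Cd52, Spi1, Mpeg1 and Ctss). In C3H minus 129P2, the same fit called 8 markers lower: Folr2, Timd4, Adgre1, Lyz2, Csf1r, Cybb, Spi1 and Ptprc. In NZO minus C3H it called 9 higher and 1 lower, the lower being Clec4f. No share over all tested genes is given for the covariate fit, so its counts cannot be set against one. Without B6 replicate 3 the count in C3H minus B6 was 6, while without 129P2 replicate 5 it was 14.

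Among markers of other liver cell types in C3H minus B6, limma called 0 of 12 tested endothelial genes (5 at an unadjusted p under 0.05), 0 of 9 hepatocyte genes (0 unadjusted), 0 of 6 neutrophil genes (0 unadjusted), 0 of 6 dendritic cell genes (2 unadjusted), 0 of 5 T and NK genes (1 unadjusted) and 0 of 3 B cell genes (0 unadjusted). Of 10 stellate cell genes, 1 was higher and 1 lower. Over all tested genes 5.34% were called lower and 2.71% higher. In the fit with array spread as a covariate, 3 endothelial genes (Clec4g, Kdr and Dnase1l3) and 1 stellate gene (Rgs5) were higher in C3H, and 1 dendritic cell gene (Siglech) and 1 B cell gene (Cd22) were lower, while the hepatocyte, neutrophil and T and NK counts were again 0. That covariate moved the median endothelial difference to 0.12, against -0.05 without it. The difference in counts between these lists and the macrophage markers was not tested.

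NZO livers compared with 129P2 and B6 livers were higher for a few markers and lower for others. NZO compared with B6 had 3 markers higher (Ccl6, Cd163 and Cx3cr1) and 2 lower (Clec4f and C1qa). These are 9.09% and 6.06% of the tested markers, against 3.63% and 6.64% of all tested genes called higher and lower. NZO compared with 129P2 had 2 higher (Ccl6 and Mpeg1) and 1 lower (Clec4f), which are 6.06% and 3.03%, against 4.29% and 4.61%. Apart from the share higher than in B6, these shares were near those of all tested genes. The median difference over the tested markers was -0.11 log2 in NZO minus B6 and -0.02 in NZO minus 129P2. Once array spread was a covariate, these medians were 0.03 and -0.04, so the sign against B6 turned.

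Ccl6, a CC chemokine of myeloid cells in mice (probe set 10389222, chromosome 11), was higher in NZO than in each other strain, a pattern called for 0.973% of all tested genes. Its log2 levels were 8.21, 7.97, 7.80, 7.94 and 8.33 in NZO livers, 7.06, 7.08, 7.44, 7.29 and 7.13 in C3H livers, 7.47, 7.35, 7.50, 7.42 and 7.61 in 129P2 livers, and 7.07, 7.38, 7.88, 7.36 and 7.51 in B6 livers. All NZO animals lay above all C3H and 129P2 animals, and the lowest NZO value, 7.80, fell under the highest B6 value, 7.88. Ccl6 averaged 8.05 ± 0.21 in NZO, 7.20 ± 0.17 in C3H, 7.47 ± 0.10 in 129P2 and 7.44 ± 0.29 in B6 (SD, n = 5 each; limma F-test adjusted p = 8.53e-05). NZO was 1.81-fold higher than C3H (0.85 ± 0.12; limma adjusted p = 3.26e-05), 1.498-fold higher than 129P2 (0.58 ± 0.12; 0.00195) and 1.53-fold higher than B6 (0.61 ± 0.12; 0.00126). The 3 calls remained under every alternative that kept the threshold.

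Clec4f, a C-type lectin that defines mouse Kupffer cells (probe set 10545731, chromosome 6), ran the other way. Its log2 levels were 9.75, 9.23, 9.31, 9.48 and 9.38 in NZO livers, 9.53, 9.94, 9.68, 9.88 and 9.75 in C3H livers, 10.03, 9.82, 9.86, 9.97 and 10.42 in 129P2 livers, and 9.92, 9.96, 10.33, 10.16 and 10.22 in B6 livers. NZO animals were the lowest as a group and did not overlap with 129P2 or B6 animals. Clec4f averaged 9.43 ± 0.20 in NZO, 9.76 ± 0.16 in C3H, 10.02 ± 0.24 in 129P2 and 10.12 ± 0.17 in B6 (SD, n = 5 each; limma F-test adjusted p = 0.000632). NZO held 62.1% of the B6 level (-0.69 ± 0.12; limma adjusted p = 0.000405) and 66.4% of the 129P2 level (-0.59 ± 0.12; 0.00176), and both calls remained under every alternative that kept the threshold. NZO minus C3H was -0.33 ± 0.12 (limma adjusted p = 0.122), which passed with array spread as a covariate (-0.36, adjusted p = 0.0243). C3H minus B6 was -0.36 ± 0.12 for Clec4f and not called (0.0634).

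Endothelial genes moved with Clec4f in NZO. Of the 12 tested, 7 were lower in NZO than in C3H, 8 lower than in 129P2 and 9 lower than in B6. Of all tested genes, 3.09%, 4.61% and 6.64% were called lower in the same order. With array spread as a covariate the counts were 9, 11 and 4 in the same order. Their mean level was 8.60 ± 0.20 in NZO (8.30 to 8.80), 9.04 ± 0.16 in C3H (8.77 to 9.17), 9.04 ± 0.15 in 129P2 (8.82 to 9.24) and 9.07 ± 0.18 in B6 (8.83 to 9.32; SD, n = 5 each). Of 10 stellate cell genes, 4, 5 and 5 were lower in NZO in the same order, and 5, 6 and 3 with the covariate. The part of either list in the Clec4f result was not tested.

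Cd163, the scavenger receptor for haemoglobin bound to haptoglobin (probe set 10541644, chromosome 6), had log2 levels of 8.41, 8.04, 7.81, 8.00 and 7.96 in NZO livers, 7.55, 7.80, 7.62, 7.60 and 7.61 in C3H livers, 8.24, 7.84, 7.96, 7.65 and 8.81 in 129P2 livers, and 7.38, 7.64, 7.32, 7.39 and 7.77 in B6 livers. B6 animals were low, and no B6 animal reached the lowest NZO value. Cd163 averaged 8.05 ± 0.22 in NZO, 7.64 ± 0.09 in C3H, 8.10 ± 0.45 in 129P2 and 7.50 ± 0.19 in B6 (SD, n = 5 each; limma F-test adjusted p = 0.0105). NZO minus B6 was 0.55 ± 0.15 (limma adjusted p = 0.0232) and 129P2 minus B6 was 0.60 ± 0.15 (0.0169). The NZO call was lost without B6 replicate 1, 3 or 4 (0.52, 0.50 and 0.52, with adjusted p of 0.0524, 0.0622 and 0.0628), and with equal array medians (0.50, adjusted p = 0.0533). The 129P2 call was lost with only the compared strains in the fit (adjusted p = 0.0742).

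Cx3cr1, the fractalkine receptor of monocytes, averaged 7.43 ± 0.08 in NZO, 7.41 ± 0.17 in C3H, 7.31 ± 0.09 in 129P2 and 7.19 ± 0.06 in B6 (SD, n = 5 each). NZO exceeded B6 by 0.24 ± 0.07 (limma adjusted p = 0.0358), while the F-test gave an adjusted p of 0.0616. The call was lost without any 1 of 7 of the 20 animals, with the spread covariate (0.22, adjusted p = 0.0758) and under 4 other processing choices.

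129P2 livers compared with B6 livers had 1 marker higher (Cd163) and 3 lower (Marco, Cd52 and Mpeg1). These are 3.03% and 9.09% of the tested markers, against 2.11% and 4.08% of all tested genes. Marco, a scavenger receptor that binds bacteria and particles (probe set 10357261, chromosome 1), had log2 levels of 8.06, 7.61, 7.45, 7.35 and 7.45 in NZO livers, 7.36, 7.34, 7.71, 7.61 and 7.51 in C3H livers, 7.10, 7.17, 6.80, 7.39 and 7.51 in 129P2 livers, and 7.53, 7.70, 8.10, 7.66 and 7.55 in B6 livers. 129P2 animals were the lowest as a group and lay below all B6 animals, while they overlapped with C3H and NZO. Marco averaged 7.59 ± 0.28 in NZO, 7.51 ± 0.16 in C3H, 7.19 ± 0.28 in 129P2 and 7.71 ± 0.23 in B6 (SD, n = 5 each; limma F-test adjusted p = 0.0433).

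The 129P2 minus B6 difference was -0.52 ± 0.14 for Marco (limma adjusted p = 0.0226) and -0.79 ± 0.20 for Cd52 (0.0185). The Marco call was lost without B6 replicate 3 (-0.42, adjusted p = 0.0762), 129P2 replicate 1 (-0.49, 0.0517) or 129P2 replicate 3 (-0.42, 0.0765), and with the spread covariate (-0.49, 0.0753). The Cd52 call was lost without B6 replicate 3 or 4 (-0.64 and -0.76, adjusted p = 0.0625 and 0.0513) or 129P2 replicate 2 or 3 (-0.70 and -0.74, 0.0619 and 0.0524), and with the spread covariate (-0.55, 0.139). With that covariate Cd163 was the 1 marker called in this comparison.

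Of the 14 tested resident Kupffer markers, 6 were called in no comparison. Cd5l, a secreted macrophage protein that regulates apoptosis and lipid synthesis, averaged 9.72 ± 0.43 in NZO, 9.15 ± 0.19 in C3H, 9.70 ± 0.58 in 129P2 and 9.70 ± 0.24 in B6 (SD, n = 5 each; limma F-test adjusted p = 0.144). Vsig4, the complement receptor of the immunoglobulin family, averaged 9.49 in NZO, 9.20 in C3H, 9.62 in 129P2 and 9.46 in B6 (0.468). Spic, a transcription factor of iron-recycling macrophages, averaged 7.07 in NZO, 6.64 in C3H, 6.83 in 129P2 and 6.95 in B6, and Id3, a regulator of Kupffer cell identity, 8.10 in NZO, 7.91 in C3H, 8.10 in 129P2 and 8.46 in B6. Hmox1, the haem-degrading oxygenase, averaged 8.49 in NZO, 8.73 in C3H, 8.66 in 129P2 and 8.81 in B6, and C1qb is given above. A call missed at this number of animals does not show that the strains are alike for these genes.

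The median within-strain SD was 0.27 log2 over the 33 tested markers and 0.145 over all tested genes, from 0.06 for Irf8 to 0.46 for Lyz2. A median of 43.2% of a marker's variance lay between strains, against 25.9% over all tested genes. Of the 33 markers, 3, 22, 22, 14 and 8 lay below their own median over the 20 arrays in NZO replicates 1 to 5, 29, 28, 28, 24 and 27 in C3H, 10, 30, 22, 16 and 3 in 129P2, and 19, 8, 3, 8 and 6 in B6. The C3H animals thus all had most markers low, whereas NZO and 129P2 each held animals with few and with many. Over all tested genes the share below the median was 45.6% to 54.3% in each animal.

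Within a strain, 1 animal often had most of the highest values. NZO replicate 1 was the highest NZO animal for 25 of the 33 tested markers, 129P2 replicate 5 the highest in its strain for 29, and B6 replicate 3 the highest in its strain for 27. In C3H the animal most often highest was replicate 4, for 12. How many macrophages each animal's sample held was not measured.

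**Figure D4:**
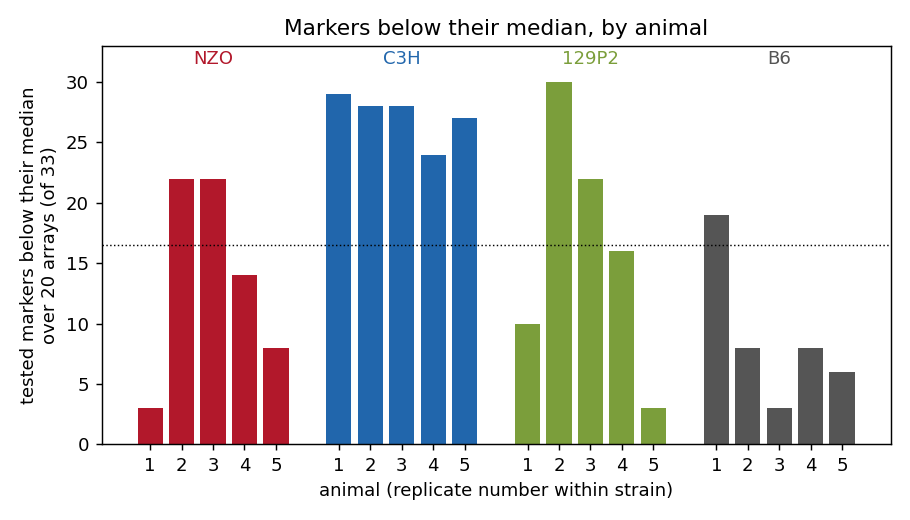
Number of the 33 tested markers below their own 20-array median in each animal, by strain, with 1 bar an animal and a dotted line at the midpoint of 33. The 5 C3H animals lie between 24 and 29, while the NZO, 129P2 and B6 animals spread from 3 to 30.

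Other Kupffer genes outside the markers showed calls in both directions. How much of their RNA in whole liver came from Kupffer cells was not measured. C3H had the lowest strain mean for 5 of the 13 tested (38.5%), against 75.8% of the tested markers. Their median difference was 0.02 log2 in C3H minus B6, with 7 of 13 above 0, and -0.17 in C3H minus 129P2, with 4 above 0. Of 13 tested, C3H compared with B6 had 0 higher and 2 lower (15.4%), against 2.71% and 5.34% of all tested genes. The 2 were Axl, a receptor kinase for apoptotic cell uptake (-0.53 log2, limma adjusted p = 0.0135), and Clec1b, the podoplanin receptor (-0.55, 0.0364). Both calls were lost with array spread as a covariate (Axl -0.38, adjusted p = 0.119, and Clec1b -0.23, adjusted p = 0.339), and that fit called 2 other genes of the list, Slc40a1 and Hpgd, higher in C3H and 0 lower. NZO compared with C3H had 1 higher and 1 lower, with B6 1 and 1, and with 129P2 2 and 4. Over all tested genes the shares higher and lower were 3.51% and 3.09% against C3H. They were 3.63% and 6.64% against B6, and 4.29% and 4.61% against 129P2. Il18bp, the interleukin-18 binding protein, was higher in NZO livers than in those of C3H, 129P2 and B6 by 0.58, 0.54 and 0.32 log2 (limma adjusted p up to 0.0403). The difference from B6 did not pass with the covariate (0.28, adjusted p = 0.111). Fcna, the lectin ficolin A of Kupffer cells, was lower in NZO, with differences of -0.55, -0.35 and -0.34 log2 in the same order (limma adjusted p up to 0.0126).

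Of 9 tested genes of other monocytes and lipid-associated macrophages, 4 were lower in C3H than in B6 and 0 higher. Of all tested genes, 5.34% were called lower and 2.71% higher. Cd44, the hyaluronan receptor, differed by -0.70 log2 (limma adjusted p = 0.00167) and Clec7a, the beta-glucan receptor, by -0.74 (0.0325). Fcgr4, an activating IgG receptor, differed by -0.52 (0.0207), and Itga4, the alpha-4 integrin chain, by -0.42 (0.0252). Of the 4 calls, only that of Cd44 (-0.69) remained with array spread as a covariate, while Clec7a (-0.52, 0.234), Fcgr4 (-0.39, 0.158) and Itga4 (-0.33, 0.150) did not pass. NZO was higher than C3H for 3 of the 9, against 3.51% of all tested genes. Among the 3 were Clec7a (0.72, limma adjusted p = 0.0403) and Fcgr4 (0.58, 0.00935). C3H was lower than 129P2 for Cd44 (-0.46, limma adjusted p = 0.0470).

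The ligands and cues of macrophages gave few calls. Of 8 tested, limma called 0 in C3H minus B6 (0 at an unadjusted p under 0.05) and 0 in C3H minus 129P2 (0 unadjusted), and Csf1 and Il34, which both signal through Csf1r, were called in no comparison. Tgfb1, a cue that maintains resident macrophages, was lower in NZO than in B6 (-0.26 log2, limma adjusted p = 0.0290) and than in 129P2 (-0.27, 0.0285). The B6 call was lost with the spread covariate (-0.22, adjusted p = 0.0777).

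Partners of the marker proteins include subunits, co-receptors and binding proteins. Of 17 tested, 2 were lower in C3H than in B6 (11.8%), against 5.34% of all tested genes. They were Fcgr3, an IgG receptor that signals through Fcer1g (-0.49 log2, limma adjusted p = 0.0123), and Itgb2, the beta chain that pairs with Itgam and Itgax (-0.31, 0.0448). Neither passed with array spread as a covariate (Fcgr3 -0.32, adjusted p = 0.125, and Itgb2 -0.20, adjusted p = 0.268). Fcgr3 was also higher in NZO than in C3H (0.40, limma adjusted p = 0.0427). Lbp, the secreted lipopolysaccharide-binding protein that loads Cd14, was higher in NZO livers than in those of C3H, 129P2 and B6 by 0.92, 0.83 and 1.13 log2 (limma adjusted p up to 0.00357). Hp, haptoglobin, whose complex with haemoglobin Cd163 takes up, was higher in NZO by 0.53, 0.68 and 0.59 log2 (limma adjusted p up to 0.000358). Both proteins are made mainly by hepatocytes.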

How the data were processed

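Liver RNA was amplified, labelled and hybridised to Affymetrix arrays, 1 per sample, per the labels' protocols. The authors deposited log2 expression values for 35556 probe sets, made in Affymetrix Expression Console with RMA (background correction, quantile normalization and probe summary), per the submitters' processing notes. Their versions and the genome build were not given in the sources used here. The labels carry no replicate numbers, so replicates 1 to 5 of a strain follow sample order and only name animals. Titles carry distinct numbers, and each sample was taken as 1 animal. Should that not hold, p-values measure only the spread between samples.

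Of the probe sets, 21789 had 1 gene symbol in the platform annotation, 1621 several and 12146 none, and only the first kind was used. Where a gene had several, the brightest on average was kept (19938 genes). Genes above the array's own 40th percentile on at least 5 arrays were tested (14190), and 5748 were not. The 4 strains were fitted together in limma 3.58.1 (R 4.3.3) with an intensity trend, 16 residual and 6.375 prior degrees of freedom. Benjamini-Hochberg adjustment ran over all tested genes in each comparison, at an adjusted p under 0.05. The fit was tested on simulated data. Values were read with the R package data.table, version 1.17.8. Further steps and figures used Python 3.11.15, pandas 2.3.3 and matplotlib 3.10.9. Precision is limited by there being 5 arrays a strain.

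The markers and all other lists were chosen with earlier results of these data known. Values of every animal are given for up to 16 markers called over the 4 strains, and for Clec4f and Adgre1. From each other list, up to 4 called genes with the largest differences could be named, and any direct ligand or partner of a marker. Alternatives were other filters on dim genes, normalizations, moderation, array weights, strains in the fit, probe sets, array spread as a covariate, a stricter threshold, and leaving out animals.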

Additional observations from a re-analysis of the deposited data

Results flagged for a closer look

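In each strain the highest and the lowest animal of every measured marker were set against the other 4. Of 148 such sets, 18 held an animal whose gap to its neighbour exceeded 0.71 of the strain's range, where chance flags about 1 in 20. All values are log2 levels.

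Among resident Kupffer markers, 129P2 replicate 5 was far above its strain for Cd5l (10.72), Adgre1 (9.30) and Spic (7.38). C3H replicate 2 was high for Cd163 (7.80) and low for Spic (6.29), and B6 replicate 3 was high for Marco (8.10).

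Among recruited myeloid markers, B6 replicate 3 was high for Lyz2 (9.93) and for the untested Ccr2 (5.90). The untested integrin genes gave 3 more, with C3H replicate 2 low for Itgam (6.19), and NZO replicate 2 (6.43) and C3H replicate 3 (6.56) high for Itgax.

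Among shared genes, B6 replicate 3 was high for Cd68 (9.52), Cybb (9.31) and Ptprc (8.53). NZO replicate 1 was high for Aif1 (7.27), Msr1 (8.68) and Ptprc (8.56), and C3H replicate 3 was low for Ptprc (7.26). By strain the flags numbered 4 in NZO, 5 in C3H, 3 in 129P2 and 6 in B6.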

How the results depend on the processing

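No paired analysis was run, as the labels give no pairing of animals between strains. Of 35 calls of a marker in a comparison, 18 remained under every alternative other than the stricter threshold, and 0 reversed. The number of markers called moved by more than 1.5 times as follows. In NZO minus B6 it was 5, and 3 with equal array medians, with quantile normalization, with array spread as a covariate or without the 3 arrays of narrowest spread, and 2 at an adjusted p under 0.01. In NZO minus C3H it was 8, and 5 at the stricter threshold. In NZO minus 129P2 it was 3, and 5 with array weights. In C3H minus B6 it was 11, and 5 with the covariate and 6 at the stricter threshold. In 129P2 minus B6 it was 4, and 1 with the covariate, without the 3 narrowest arrays or with only the compared strains in the fit, and 0 at the stricter threshold. In C3H minus 129P2 it was 4, and 9 with array weights, 8 with the covariate and 1 at the stricter threshold. Over the 4 strains it was 15, and 7 at the stricter threshold. Markers that set a strain apart numbered 3, and 5 with quantile normalization and 6 with array weights. The cause was not tested.

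Leaving out 1 animal at a time gave 2 to 7 markers in NZO minus B6 (2 without B6 replicate 3 or 4), 6 to 11 in NZO minus C3H, 3 to 4 in NZO minus 129P2, 6 to 14 in C3H minus B6 (6 without B6 replicate 3), 1 to 6 in 129P2 minus B6 (1 without B6 replicate 3 or 129P2 replicate 3), 3 to 8 in C3H minus 129P2 (8 without 129P2 replicate 2), 10 to 18 over the 4 strains and 3 to 6 set apart (6 without NZO replicate 1). Signal over background limits Spic, Cd14 and Aif1, which passed the 40th percentile on 19, 15 and 13 arrays.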

Other observations

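Genes of other blood and liver cells, read beside the macrophage markers, gave few calls outside the endothelial and stellate lists. Cd4, the co-receptor of helper T cells, was higher in NZO than in 129P2 by 0.71 ± 0.15 log2 (SE, limma adjusted p = 0.00230) and higher in C3H than in 129P2 by 1.01 ± 0.15 (limma adjusted p = 7.40e-05). 129P2 was lower than B6 for Cd4, with a difference of -0.54 ± 0.15 (limma adjusted p = 0.0282). It was the only call among the 5 tested T and NK genes in each of these 3 comparisons.

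Alas2, the first enzyme of haem synthesis in red cell precursors, averaged 10.55 ± 0.24 in NZO, against 9.96 ± 0.12 in 129P2 and 9.97 ± 0.23 in B6 (SD, n = 5 each). Its difference was 0.59 ± 0.11 in NZO minus 129P2 (limma adjusted p = 0.00110) and 0.58 ± 0.11 in NZO minus B6 (limma adjusted p = 0.00130). Slc4a1, the anion exchanger of red cells, was higher in NZO than in B6 by 0.24 ± 0.07 (limma adjusted p = 0.0367), which did not pass with array spread as a covariate (0.17, adjusted p = 0.120).

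S100a9, a calcium-binding protein of neutrophils and monocytes, was higher in NZO than in B6 by 0.39 ± 0.11 log2 (limma adjusted p = 0.0285), and 6 of the 12 listed neutrophil genes were tested. Pck1, the gluconeogenic enzyme of hepatocytes, was lower in NZO than in B6 (-0.80 ± 0.21, limma adjusted p = 0.0174) and was the 1 hepatocyte gene of 9 called in any comparison. With array spread as a covariate it did not pass (-0.76, adjusted p = 0.0527).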
